A study of Mus musculus with 8 samples.

Results

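The expression of 10 genes of glycolysis and glucose uptake was examined in tumor-inoculated mouse skin with and without bexarotene. The genes were taken by name from the deposited table of 55247 rows, in which each name occurred once, and all 10 passed the filter on low counts that left 11616 rows for testing. They encode the glucose transporters *Slc2a1* and *Slc2a3*, the hexokinases *Hk1* and *Hk2*, the phosphofructokinase subunits *Pfkl* and *Pfkp*, the enzymes *Aldoa*, *Pgk1* and *Pkm*, and the lactate dehydrogenase subunit *Ldha*. Each of the 8 libraries was from 1 mouse, and all mice were WT, female, of the strain C57BL/6J (C57BL/6JJmsSlc in the methods) and 8 weeks old. All mice, including the controls, carried a tumor grown from EL4, a T-cell lymphoma line of the mouse, that was injected under the back skin on Day 0. On Day 14, the 4 mice of the bexarotene group were given 0.1 mg of the drug intraperitoneally. Bexarotene activates the retinoid X receptors, which are nuclear receptors. The 4 mice of the vehicle group received vehicle, for which the methods describe dimethyl sulfoxide in corn oil as the solvent of the drug. Tissue was taken on Day 16. No skin without a tumor was part of the comparison, and each library mixed tumor cells with skin and infiltrating cells.

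Glycolysis splits glucose into pyruvate. Glucose enters cells through transporters of the SLC2A (GLUT) family, hexokinase traps it as glucose 6-phosphate, and phosphofructokinase commits it to the pathway. Aldolase splits the sugar bisphosphate, phosphoglycerate kinase and pyruvate kinase make ATP, and lactate dehydrogenase turns pyruvate into lactate while restoring NAD+. Lymphoma cells and activated T cells are known for high glucose use, and several of these genes are known targets of HIF-1α, the transcription factor of the response to low oxygen, and of MYC.

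In GRCm39, as the deposited table gives it, the transporters lie with *Slc2a1* (ENSMUSG00000028645) at chr4:118965908-118995180 and *Slc2a3* (ENSMUSG00000003153) at chr6:122704768-122778599. The hexokinases lie with *Hk1* (ENSMUSG00000037012) at chr10:62104634-62215687 and *Hk2* (ENSMUSG00000000628) at chr6:82702006-82751435, and the phosphofructokinase subunits with *Pfkl* (ENSMUSG00000020277) at chr10:77822781-77845917 and *Pfkp* (ENSMUSG00000021196) at chr13:6629804-6698813. Of the lower pathway, *Pgk1* (ENSMUSG00000062070) lies at chrX:105230706-105247305, *Pkm* (ENSMUSG00000032294) at chr9:59563651-59586658 and *Ldha* (ENSMUSG00000063229) at chr7:46490899-46505051. Counts were taken over whole genes, so exons and splice forms are not resolved.

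The promoters show what several members share outside their expression values. The search was for the core of the hypoxia response element (ACGTG or GCGTG, both strands), which HIF-1α is known to bind. In the RefSeq promoters (table of build GRCm38.p6), 9 members matched by symbol and *Slc2a3* did not. The promoters listed for *Aldoa* were left out for the reason given with its values, which left 11 promoters of 8 members. In the 250 bases before the start, the core was found in 9 of the 11 promoters, against 38.6% of 32851 mouse promoters of the same length. Each of the 8 members had it in at least 1 promoter, a count per gene for which no background was taken. The E-box CACGTG, which overlaps the core where it is flanked by a cytosine, was found in 1 of the 11, against 6.02% of all promoters. The nuclear receptor half-site AGGTCA, searched for because retinoid X receptors bind such sites, was found in 1 of the 11, against 14.0%. A match is a description of the letters and not evidence of binding. The 4 printed here are from a transporter, a hexokinase and a pair of enzymes of the lower pathway, and are not typical of the 11. They were the only ones with a full core in the part outside the exons of the gene in GENCODE vM39. Those of *Hk1* and *Pfkp* had none in that part, and those of *Pfkl* and *Pkm* lay in exons throughout. Each printed sequence is that part of the 250 bases, 5′ to 3′ on the gene's strand. It was matched exactly to GRCm39, and the hypoxia core is in capitals.
Slc2a1, chr4:118965692-118965907, plus strand: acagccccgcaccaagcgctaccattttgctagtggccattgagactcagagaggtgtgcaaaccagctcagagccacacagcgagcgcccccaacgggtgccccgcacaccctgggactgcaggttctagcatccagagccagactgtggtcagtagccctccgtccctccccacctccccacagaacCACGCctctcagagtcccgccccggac
Hk2, chr6:82751470-82751685, minus strand: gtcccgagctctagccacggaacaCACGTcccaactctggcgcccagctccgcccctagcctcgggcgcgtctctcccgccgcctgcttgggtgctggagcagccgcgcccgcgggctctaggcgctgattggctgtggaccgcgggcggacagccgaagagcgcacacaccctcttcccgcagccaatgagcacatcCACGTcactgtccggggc
Pgk1, chrX:105230456-105230705, plus strand: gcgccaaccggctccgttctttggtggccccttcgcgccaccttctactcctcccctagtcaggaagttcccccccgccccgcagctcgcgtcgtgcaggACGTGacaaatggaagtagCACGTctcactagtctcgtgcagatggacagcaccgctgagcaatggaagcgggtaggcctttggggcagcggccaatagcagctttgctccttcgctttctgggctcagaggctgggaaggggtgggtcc
Ldha, chr7:46494978-46495131, plus strand: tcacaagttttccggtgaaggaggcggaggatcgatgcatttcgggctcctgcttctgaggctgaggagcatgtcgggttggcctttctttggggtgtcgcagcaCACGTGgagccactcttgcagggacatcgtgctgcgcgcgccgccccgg
Within the printed parts, and from its first base, the core began 61 bases before the start in *Slc2a1*, 226 and 52 bases before it in *Hk2*, 150 and 131 bases before it in *Pgk1* and 145 bases before it in *Ldha*. Further cores that the printed parts do not hold in full began 36 bases before the start in *Slc2a1* and 48 and 34 bases before it in *Ldha*. In the printed part of *Ldha* the capitals run to 6 letters because the core lies on both strands, and they hold the E-box.

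The libraries differed in depth and make-up. Totals ranged from 8518428 to 24020342 counts, of which 18S ribosomal RNA (*Rn18s*) held 50.8% to 59.8% and protein-coding genes 4.02% to 19.0%. The 10 members held 21768 counts in Vehicle 1 and 1168 in Bexarotene 2, the extremes. Bexarotene 1 and Bexarotene 2 had the lowest protein-coding shares, 6.35% and 4.02%, and differences they weigh on are given with and without them. Levels are in CPM, counts scaled to a common library size, here corrected with TMM factors, which set the bulk of the genes equal between libraries. Bexarotene was compared with vehicle by edgeR's quasi-likelihood test, with Benjamini-Hochberg adjustment over all 11616 genes and a threshold of 0.05, and fold changes are bexarotene over vehicle. No gene passed this threshold (0% of 11616), and 428 genes (3.68%) had an unadjusted p under 0.05, 277 higher and 151 lower. DESeq2, the tool of the study, called 3 genes, none of them a member. In simulated counts, the edgeR test called 20% of 100 genes changed 2-fold, 78.6% of 98 genes changed 4-fold and 8 of 11372 unchanged genes. At the adjusted threshold most 2-fold changes were thus missed there, and smaller changes were not simulated. The changed genes were drawn from all levels of expression, so these shares are not those of the members.

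None of the 10 members passed the test (0 of 10, background 0%), and none had an unadjusted p under 0.05 in edgeR (0 of 10, background 3.68%, of which 2.38% higher and 1.3% lower) or in DESeq2. In all 10 the ranges of the groups overlapped, whereas 2.83% of the genes tested had ranges that did not (1.41% higher and 1.42% lower). The fold change was above 0 for 8 members and below 0 for *Slc2a1* and *Pkm* (below 0 for all 10 with total counts alone), against 46.5% above 0 and 53.5% below 0 among all genes. The median of the 10 was 0.16 on the log2 scale, beside −0.03 for all genes tested. Without Bexarotene 1 and Bexarotene 2 together, the members' median was −0.03. Scaled by total counts alone, the members' median was −0.59 and that of all genes −0.66. Adjusted p-values of the members ranged from 0.976 to 0.9999. In tissue, fewer cells of a type and less RNA per cell cannot be told apart.

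**Figure D1:**
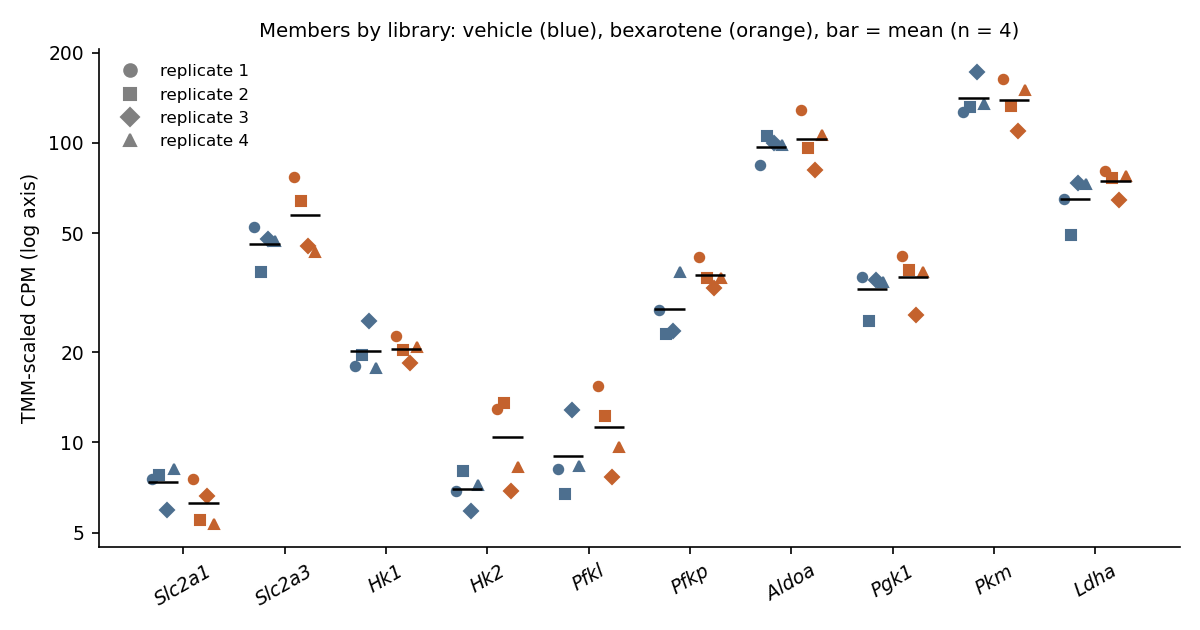
TMM-scaled CPM (log axis) of the 10 members in each library, with vehicle in blue, bexarotene in orange, symbols for replicates and a bar for the mean of 4. The groups overlap for every member, and Bexarotene 1 (orange circle) is the highest library for 6 of them.

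*Slc2a3*, which encodes GLUT3, a transporter of high affinity for glucose, was the more abundant transporter per length. Its CPM was 52.4, 37.1, 47.7 and 46.9 in the vehicle mice 1 to 4 and 77.0, 63.8, 45.1 and 43.1 in the bexarotene mice 1 to 4. Bexarotene 1 and Bexarotene 2 lay above all vehicle libraries, and the other pair lay inside their range. The means were 46.0 ± 6.44 CPM (SD, n = 4) and 57.2 ± 16.1 (SD, n = 4), a log2 fold change of 0.31 (SE 0.22, edgeR unadjusted p = 0.195, adjusted p = 0.976). Without Bexarotene 1 and Bexarotene 2 the log2 fold change was −0.05. *Slc2a1* encodes GLUT1, the transporter of basal glucose uptake in many cell types. It had 7.55, 7.81, 5.95 and 8.17 CPM in the vehicle mice 1 to 4 and 7.57, 5.49, 6.63 and 5.33 CPM in the bexarotene mice 1 to 4. Vehicle 3 was as low as the bexarotene libraries, and Bexarotene 1 was as high as the vehicle ones. The log2 fold change was −0.23 (SE 0.18, edgeR unadjusted p = 0.230, adjusted p = 0.976), and it stayed below 0 under all 19 alternatives tried. The value of Bexarotene 2 came from 13 counts, with an exact Poisson interval of 2.92 to 9.39 CPM that covers counting error only.

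*Hk2*, the hexokinase that tumor cells and stimulated lymphocytes are known to induce, had the largest fold change of the members in edgeR over all 8 libraries. *Pfkp* stood above it without Bexarotene 1 and Bexarotene 2, without Bexarotene 2 alone, without Vehicle 4 and in limma-voom, as did *Pfkl* without Vehicle 3. It had 6.89, 8.06, 5.90 and 7.20 CPM in the vehicle mice 1 to 4 and 12.9, 13.5, 6.90 and 8.25 CPM in the bexarotene mice 1 to 4. Only Bexarotene 3 fell inside the vehicle range. The means were 7.01 ± 0.891 CPM (SD, n = 4) and 10.4 ± 3.32 (SD, n = 4), and the log2 fold change was 0.51 (95% interval −0.003 to 1.01, edgeR unadjusted p = 0.0512, adjusted p = 0.976). The exact permutation test of the log2 CPM gave p = 0.114 (two-sided, 4 against 4). Without Bexarotene 1 and Bexarotene 2 the log2 fold change was 0.13 (unadjusted p = 0.480), and without Bexarotene 3 it was 0.70 (unadjusted p = 0.00958). Behind the high values of Bexarotene 1 and Bexarotene 2 were 82 and 32 counts. *Hk1*, the hexokinase present in most tissues, averaged 20.2 ± 3.64 CPM (SD, n = 4) in the vehicle group and 20.6 ± 1.78 (SD, n = 4) in the other, with Vehicle 3 highest at 25.5 and Vehicle 4 lowest at 17.7. The difference, 0.03 on the log2 scale (SE 0.17), was far inside the spread of the libraries.

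*Pfkp*, the platelet-type subunit of phosphofructokinase, had 27.7, 23.0, 23.5 and 37.2 CPM in the vehicle mice 1 to 4 and 41.6, 35.5, 32.7 and 35.5 CPM in the bexarotene mice 1 to 4. All bexarotene libraries lay above 3 of the 4 vehicle libraries, and Vehicle 4 lay above 3 of the 4 bexarotene libraries. The log2 fold change was 0.38 (95% interval −0.04 to 0.80, edgeR unadjusted p = 0.0733, adjusted p = 0.976). It was 0.31 without Bexarotene 1 and Bexarotene 2, and 0.56 without Vehicle 4 (unadjusted p = 0.0123). *Pfkp* overlaps *Pitrm1* on the opposite strand, which had 1715 counts beside its own 5459, and the strand setting of the counting was not known, so its counts are uncertain. *Pfkl*, the liver-type subunit, had 8.16, 6.71, 12.8 and 8.34 CPM in the vehicle mice 1 to 4 and 15.5, 12.2, 7.68 and 9.67 CPM in the bexarotene mice 1 to 4. The spread within each group was wide, and Vehicle 3 was higher than 3 bexarotene libraries. The log2 fold change was 0.29 (SE 0.26), and −0.04 without Bexarotene 1 and Bexarotene 2. *Pfkl* overlaps *Cfap410* on the opposite strand, with 147 counts.

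**Figure D2:**
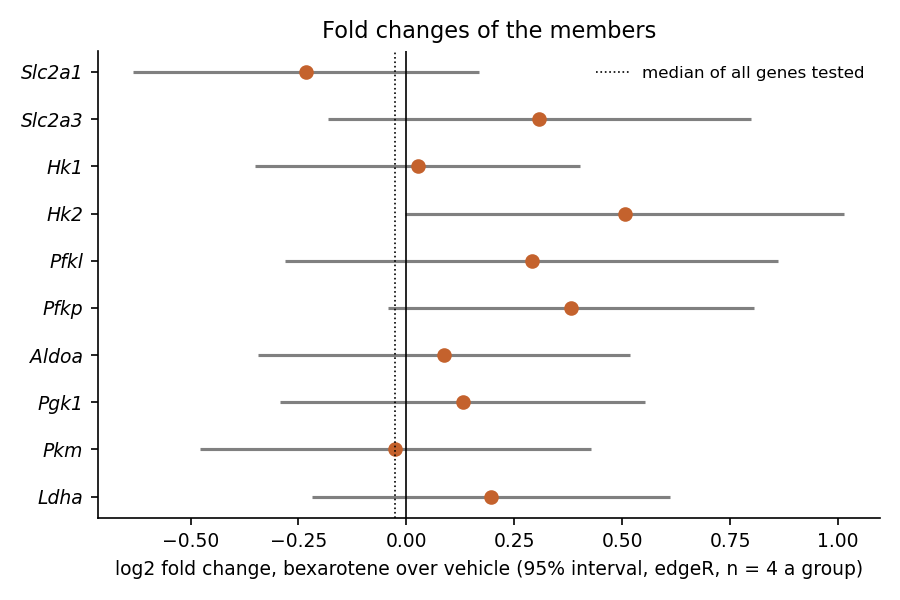
Log2 fold change of bexarotene over vehicle for each member, with its 95% interval from edgeR (n = 4 a group). All 10 intervals include 0, that of *Hk2* with its lower end at −0.003, and the dotted line marks the median of all genes tested, −0.03.

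The members of the lower pathway had log2 fold changes between −0.03 and 0.20. The row named *Aldoa* needs a caution before its values. Its identifier is ENSMUSG00000114515, with a deposited span on chromosome 7 from 126399962 to 126408280, and GENCODE vM39 gives this identifier the name Gm57854, a protein-coding gene whose transcripts run on into exons of *Aldoa*. The gene that GENCODE calls *Aldoa*, ENSMUSG00000030695, spans 126393822 to 126399923 and has no row in the deposited table. The deposited length of the row, 3748 bases, exceeds the 866 exonic bases that GENCODE places inside its deposited span. Which reads of this locus were counted in the row is therefore uncertain. The names of the other 9 members matched GENCODE vM39, and 7 of these 9 had a fold change above 0, with a median of 0.20.

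With this limit, the row named *Aldoa* averaged 96.9 ± 8.98 CPM (SD, n = 4) in the vehicle group and 103 ± 19.8 (SD, n = 4) in the other, with the extremes, 81.4 and 128, in Bexarotene 3 and Bexarotene 1. *Pgk1*, the gene of phosphoglycerate kinase, had 35.6, 25.5, 34.7 and 34.4 CPM in the vehicle mice 1 to 4 and 42.0, 37.6, 26.5 and 37.0 CPM in the bexarotene mice 1 to 4. In each group 1 library, Vehicle 2 and Bexarotene 3, lay apart from the other 3 on the low side. *Pkm*, whose splice forms include the PKM2 enzyme of proliferating cells, had 141 ± 21.0 CPM (SD, n = 4) and 139 ± 23.5 (SD, n = 4). Counts per gene do not separate these forms. *Ldha* had 65.1, 49.1, 73.6 and 72.7 CPM in the vehicle mice 1 to 4 and 80.5, 76.4, 64.5 and 77.2 CPM in the bexarotene mice 1 to 4. Bexarotene 3 lay inside the vehicle range and the other 3 bexarotene libraries above it. The log2 fold changes were 0.09 (SE 0.20) for the *Aldoa* row, 0.13 (SE 0.19) for *Pgk1*, −0.03 (SE 0.21) for *Pkm* and 0.20 (SE 0.19) for *Ldha*. Unadjusted p-values in edgeR ranged from 0.320 for *Ldha* to 0.903 for *Pkm*. Near-identical copies of *Pgk1* elsewhere in the genome held 538 counts beside its 5888, those of *Pkm* 1096 beside 23975 and those of *Ldha* 92 beside 12010, so part of the reads of these genes may have been counted at the copies.

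Levels were compared between members per base of the deposited gene length, as shares of the summed length-scaled counts of the 10 members in each library. The row named *Aldoa* took 27.9% ± 2.66 (SD, n = 8), *Ldha* 22.1% ± 2.03 (SD, n = 8), *Pkm* 18.1% ± 1.60 (SD, n = 8) and *Pgk1* 15.9% ± 1.32 (SD, n = 8). *Slc2a3* followed with 5.93% ± 0.967 (SD, n = 8), below these 4 in all 8 libraries. *Hk1* and *Pfkp* had 2.51% each, *Slc2a1* 2.01%, *Pfkl* 1.56% and *Hk2* 1.51%. The enzymes of the lower steps thus stood above the transporters, hexokinases and phosphofructokinase subunits in every library. *Ldha* was above *Pkm* in 7 of 8 libraries and *Pkm* above *Pgk1* in 6. Among the last 5 the order was not the same in all libraries, since *Hk1* was above *Pfkp* in 3 of 8, *Pfkp* above *Slc2a1* in 6, *Slc2a1* above *Pfkl* in 5 and *Pfkl* above *Hk2* in 5. These shares depend on the deposited lengths, which reach 13401 bases for *Pfkp* and 9050 for *Slc2a3*.

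**Figure D3:**
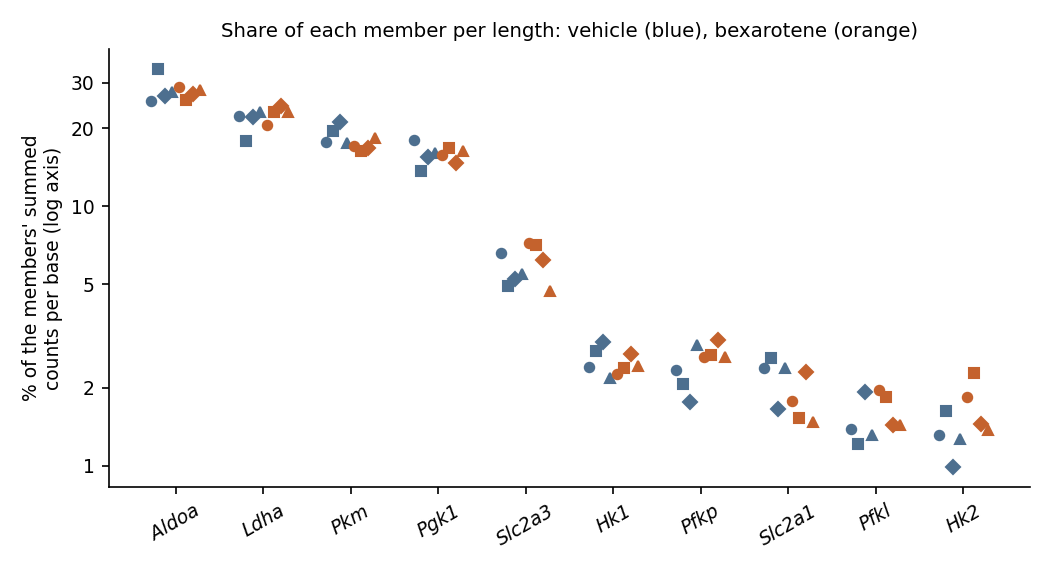
Share of each member in the summed counts per base of the 10 members (percent, log axis) for each of the 8 libraries, with vehicle in blue and bexarotene in orange. The *Aldoa* row, *Ldha*, *Pkm* and *Pgk1* lie between 13.7% and 33.8%, and the other 6 members at 7.19% or less.

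The balance of paired isozymes was compared within each library, where scaling between libraries has no part. The ratio of *Slc2a3* to *Slc2a1*, per base, was 2.77, 1.89, 3.19 and 2.29 in the vehicle mice 1 to 4 and 4.05, 4.63, 2.71 and 3.22 in the bexarotene mice 1 to 4. *Slc2a3* was the higher of the pair in all 8 libraries, and 3 of the 4 bexarotene libraries had a ratio above that of every vehicle library. The mean log2 ratio was higher by 0.51 with bexarotene (two-sided exact permutation test, 4 against 4, p = 0.114, adjusted p = 0.457 over 4 ratios), and by 0.25 without Bexarotene 1 and Bexarotene 2 (exact permutation p = 0.467). The ratio of *Hk2* to *Hk1* ranged from 0.331 in Vehicle 3 to 0.953 in Bexarotene 2, so *Hk1* was the higher of the pair in all 8 libraries. Its mean log2 ratio was higher by 0.48 with bexarotene (exact permutation p = 0.257, adjusted p = 0.514), and by 0.14 without Bexarotene 1 and Bexarotene 2. The log2 ratio of *Pfkp* to *Pfkl* differed by 0.09 (exact permutation p = 0.800, adjusted p = 0.800), and by 0.34 without Bexarotene 1 and Bexarotene 2 (exact permutation p = 0.533). *Pfkp* was the lower of the pair in Vehicle 3 alone. *Ldhb*, the gene of the other main subunit of lactate dehydrogenase, was at most 0.0705 of *Ldha*, in Vehicle 2, and had no count in Bexarotene 2. The log2 ratio of *Ldhb* to *Ldha* differed by −0.49 with bexarotene (exact permutation p = 0.657, adjusted p = 0.800). It differed by −0.23 when 1 rather than 0.5 was added to the counts. Without Bexarotene 1 and Bexarotene 2 the difference was −0.18 (exact permutation p = 0.867). The smallest p that 4 against 4 can give is 0.0286, which a single ratio among 4 cannot bring under 0.05 after adjustment. Tests without Bexarotene 1 and Bexarotene 2 have fewer assignments, and so a higher smallest p.

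**Figure D4:**
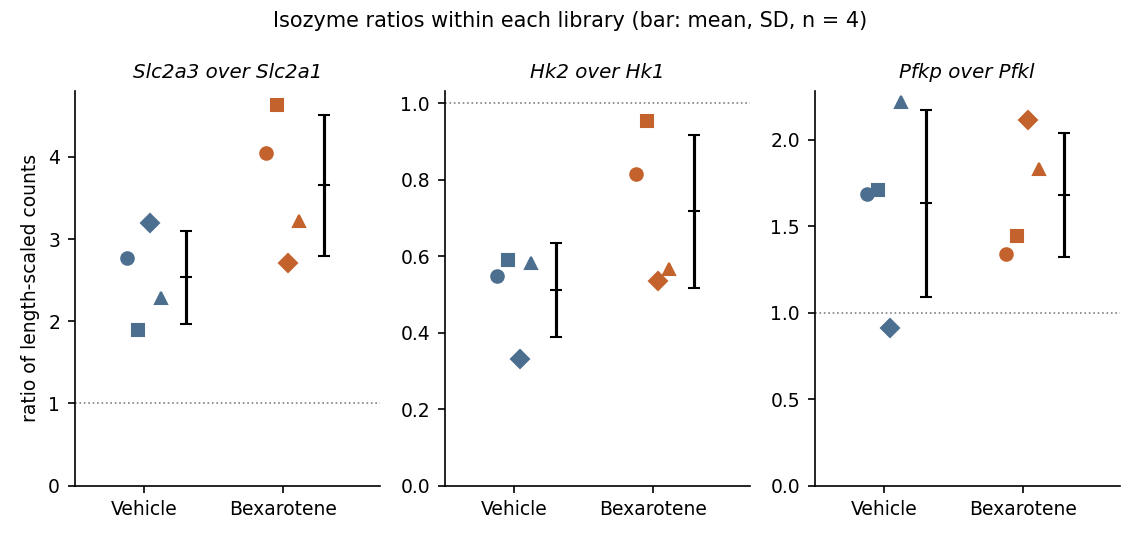
Ratio of length-scaled counts of the paired isozymes in each library, with the mean and SD of 4 beside the points and a dotted line at 1. *Slc2a3* exceeded *Slc2a1* and *Hk1* exceeded *Hk2* in all 8 libraries.

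Libraries of the same group differed across the members. Bexarotene 1 was the highest of the 8 libraries for 6 members and lay above the vehicle mean for all 10. Vehicle 2 was the lowest library for 5 members, and Bexarotene 3 lay above the vehicle mean for 2 only. The summed CPM of the members was 432, 414, 502 and 466 in the vehicle mice 1 to 4 and 592, 493, 399 and 493 in the bexarotene mice 1 to 4. The extremes were both bexarotene libraries. Across the 8 libraries, which share the unequal depths given above, the 45 pairs of members had a median Pearson r of log2 CPM of 0.465, with *Pgk1* and *Ldha* the closest pair (r = 0.865, n = 8). *Slc2a1* stood apart from the others. Of its 9 correlations 8 were below 0, with a median of −0.212. The genes whose pattern was most like that of *Slc2a1* were *Ero1a* (r = 0.872, n = 8), *Arid5b* (0.855) and *Elk4* (0.855). Those most like *Ldha* were *Ran* (r = 0.961, n = 8), *Chaf1a* (0.943) and *Me2* (0.940). They were picked as the highest of 2041 and 2040 genes, and are a description of these libraries.

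**Figure D5:**
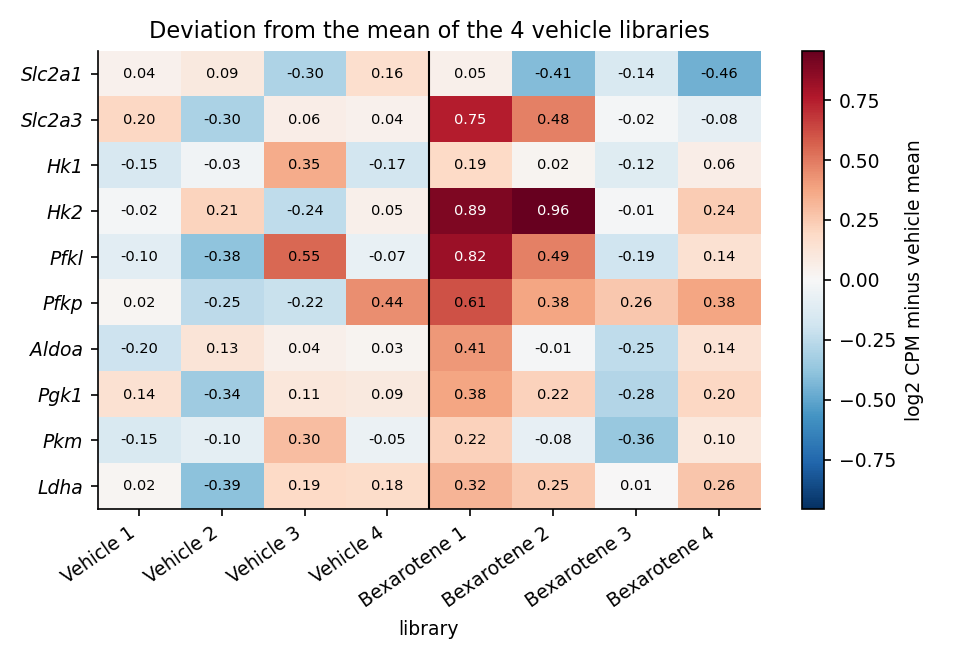
Log2 CPM of each member in each library minus its mean in the 4 vehicle libraries. The column of Bexarotene 1 is above 0 for all 10 members, and those of Vehicle 2 and Bexarotene 3 are mostly below it.

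The RNA of cell type markers also differed between libraries. Summed CPM of 10 markers of the T lineage, to which EL4 belongs, ranged from 158 to 207 with vehicle and from 171 to 192 with bexarotene, and none of these markers was at 0 in all libraries. The 8 keratinocyte markers summed to 326 CPM in Vehicle 2, the lowest library for 5 members, and to 13.1 in Vehicle 4. Their range with bexarotene was 40.5 to 125. The 9 macrophage markers were also highest in Vehicle 2, at 112, against 31.0 to 65.6 in the other vehicle libraries and 43.1 to 62.0 with bexarotene. The 6 fibroblast markers were highest in Bexarotene 2, at 1683, and in Bexarotene 1, at 879, against 262 to 782 with vehicle. These are the libraries with high *Hk2* and *Slc2a3*. The 3 collagens of that list (*Col1a1*, *Col1a2* and *Col3a1*) made up 1671 and 864 of these sums, against 236 to 733 with vehicle. The other 3 markers were lower in Bexarotene 1 and Bexarotene 2 than in every vehicle library, with *Dcn* at 10.7 and 6.34 CPM against 18.6 to 35.1, and *Lum* and *Pdgfra* likewise. The 7 neutrophil markers summed to 5.41 to 8.24 CPM with vehicle and 0.845 to 5.74 with bexarotene. They were lowest in Bexarotene 2, the library with the fewest counts, and *Ly6g* was at 0 in all libraries. Of the 5 that were tested 4 had a fold change below 0. *S100a8* did not overlap between the groups (edgeR unadjusted p = 0.0371), as did not 2.83% of all genes tested. Without Bexarotene 1 and Bexarotene 2 its log2 fold change was −0.94 (edgeR unadjusted p = 0.0880). The 8 skeletal muscle markers ranged from 36.5 to 117 CPM with vehicle and from 9.71 to 201 with bexarotene, highest in Bexarotene 3, and the 5 endothelial markers from 14.9 to 20.3 and from 12.7 to 20.9. In edgeR, 8 of 9 macrophage and 7 of 8 keratinocyte markers had a fold change below 0. Above 0 were 6 of 7 muscle, 7 of 9 T-lineage and 4 of 5 endothelial markers tested. Of the fibroblast markers 3 were above 0 and 3 below. Beside *S100a8*, 1 macrophage and 1 muscle marker had an edgeR unadjusted p under 0.05 (background 3.68%). The part of these cell types in the values of the members was not tested.

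The rest of the pathway was followed with 7 lists of 88 other genes, of which 62 were tested. None passed the adjusted threshold (background 0%), 1 had an unadjusted p under 0.05 (background 3.68%), 30 had a fold change above 0 and 32 below 0. The 1 gene was *Txnip*, whose product, induced by glucose, is known to restrain glucose uptake. It had 8.80, 11.9, 6.72 and 8.40 CPM in the vehicle mice 1 to 4 and 4.89, 5.07, 6.22 and 6.84 CPM in the bexarotene mice 1 to 4. The highest bexarotene library overlapped only the lowest vehicle library. Its log2 fold change was −0.60 (SE 0.21, edgeR unadjusted p = 0.0152, adjusted p = 0.976), opposite in sign to that of 8 members over all 8 libraries. Without Bexarotene 1 and Bexarotene 2 it was −0.44 (edgeR unadjusted p = 0.0855), and the median of the members was then −0.03, of the same sign.

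Of the 11 other glucose transporters 3 were tested, and the most abundant, *Slc2a9* and *Slc2a6*, averaged 0.255 and 0.250 TPM (counts per length, scaled within a library) over the 8 libraries, against 4.63 TPM for *Slc2a3*. Of the 16 other glycolytic enzymes 8 were tested, 2 with a fold change above 0 and 6 below. The most abundant per length were *Pgam1*, phosphoglycerate mutase, with a log2 fold change of 0.16 (SE 0.17), and *Eno1*, enolase, with −0.13 (SE 0.23). These stand between *Pgk1* and *Pkm* in the pathway. *Gapdh*, whose enzyme works just before phosphoglycerate kinase, was named after its values were seen. It had 70.3, 88.6, 104 and 89.5 CPM in the vehicle mice 1 to 4 and 38.5, 25.8, 72.9 and 88.7 CPM in the bexarotene mice 1 to 4. Bexarotene 1 and Bexarotene 2 were its lowest libraries. In these, 10 and 7 members lay above the vehicle mean, against 2 in Bexarotene 3 and 8 in Bexarotene 4. The log2 fold change of *Gapdh* was −0.63 (SE 0.34, edgeR unadjusted p = 0.0894, adjusted p = 0.976). Without Bexarotene 1 and Bexarotene 2 it was −0.11 (edgeR unadjusted p = 0.614).

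In the list of regulators, with 9 of 12 genes tested, *Myc* had a log2 fold change of 0.15 (SE 0.18) and *Hif1a* of −0.24 (SE 0.20). Among genes that handle lactate and pyruvate, *Bsg*, a partner of lactate transporters, had −0.04 (SE 0.18), and *Pdha1*, a subunit of pyruvate dehydrogenase, −0.12 (SE 0.28). In the pentose phosphate pathway, which draws on glucose 6-phosphate, *Tkt* had −0.27 (SE 0.20) and *G6pdx* −0.23 (SE 0.30). *Pgm1* and *G6pc3*, of glycogen and glucose 6-phosphate handling, had 0.34 (SE 0.23) and 0.03 (SE 0.24). Of 14 hypoxia-induced genes tested outside glycolysis 7 were above 0 and 7 below, and the most abundant, *Egln3* and *Ero1a*, had 0.22 (SE 0.21) and −0.21 (SE 0.32). None of these genes had an unadjusted p under 0.05 in the edgeR test. List medians ran from −0.11 for the other glycolytic enzymes to 0.15 for the regulators, against 0.16 for the members.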

How the data were processed

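RNA-seq libraries of EL4 tumor-inoculated skin from 4 vehicle-treated and 4 bexarotene-treated mice were analyzed. Per the labels, ribosomal RNA was removed and the kit kept strand, yet *Rn18s* still held 50.8% to 59.8% of the counts. The authors' tools were Trimmomatic 0.30 for trimming, FastQC 0.11.9 for quality, HISAT2 for alignment to GRCm39 and HTSeq 0.6.1 for counting. Deposited were raw counts per gene, whole numbers without scaling or filter, beside gene lengths whose origin is not stated. How strand was set in counting is not given in the sources used here. Unnamed regions, which held 24.1% to 28.8% of the counts of a library, stayed in the totals, and a fit on named rows only was an alternative.

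For testing, R 4.3.3 was used with edgeR 4.0.16 (filterByExpr, minimum count 10 and total 15, TMM, quasi-likelihood test without covariates, Benjamini-Hochberg adjustment), and intervals of fold changes are 95% from the same fit. DESeq2 1.42.0 and limma 3.58.1 (voom with sample weights) were alternatives, beside other scalings and filters, a replicate block and each library left out. This test was tested on simulated counts. Ratios of isozymes used counts plus 0.5 divided by length, with exact permutation tests over all 70 assignments. Ratios printed on the linear scale had no value added. Correlations used log2 CPM with a prior count of 2. Near-identical transcripts (200 aligned bases, 90% identity) were found with minimap2 2.31-r1302 in GENCODE vM39. Promoters are RefSeq's.

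Besides the members, the genes named were those of each pathway list with an unadjusted p under 0.05 and the 2 most abundant per length, and for *Slc2a1* and *Ldha* the 3 genes of highest correlation, among named protein-coding genes with a mean log2 CPM of at least 3. The members and lists were chosen with earlier results of these data known. The replicate numbers were not taken as pairs in the main test, and whether they pair the samples is not known. Other experiments of the authors were not used here.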

Additional observations from a re-analysis of the deposited data

Results flagged for a closer look

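Among 28 sets of 4 values (the CPM of each member in each group and the log2 isozyme ratios in each group), 2 held a library far from its group by Dixon's criterion, and chance gives about 1 in 20. *Pgk1* in Vehicle 2 was at 25.5 CPM, below the other vehicle libraries, which lay between 34.4 and 35.6. The log2 ratio of *Hk2* to *Hk1* in Vehicle 3 was −1.59, against −0.87, −0.76 and −0.78 in the other vehicle libraries. In Vehicle 3 both genes moved away from the others, since it had the lowest *Hk2* and the highest *Hk1* of the vehicle group.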

How the results depend on the processing

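No member passed the adjusted threshold under any of the 18 alternatives with an adjusted p (180 values, smallest 0.603), and the exact permutation test gave unadjusted p of 0.114 or more. Over both, 167 of 190 values kept the direction. DESeq2 called 3 genes over the whole table where edgeR called 0, namely Gm46546, Gm5963 and an unnamed region, named here after their values were seen. Unadjusted, *Hk2* had a p under 0.05 in 7 alternatives and *Pfkp* in 2. Scaled by total counts alone, the log2 fold changes were −0.57 (*Slc2a3*), −0.60 (*Hk1*), −0.36 (*Hk2*), −0.46 (*Pfkl*), −0.40 (*Pfkp*), −0.62 (*Aldoa*), −0.67 (*Pgk1*) and −0.53 (*Ldha*). Without Bexarotene 1 and Bexarotene 2 they were −0.051 (*Slc2a3*), −0.027 (*Hk1*), −0.042 (*Pfkl*), −0.031 (*Aldoa*) and −0.023 (*Pgk1*). *Hk1* was at −0.017 without a filter and at −0.056 with at least 10 counts in every library, where *Aldoa* was at −0.0059. *Pkm* was at 0.010 in limma-voom. Leaving out each library in turn gave −0.031 to 0.16 for *Hk1*, −0.042 to 0.21 for *Aldoa* and −0.12 to 0.097 for *Pkm*. The differences in log2 ratio then ran from −0.17 (without Vehicle 3) to 0.26 for *Pfkp* over *Pfkl* and from −1.11 to 0.23 (without Vehicle 2) for *Ldhb* over *Ldha*. They were 0.38 to 0.64 for *Slc2a3* over *Slc2a1* and 0.28 to 0.61 for *Hk2* over *Hk1*. Over these 8 fits the members' median ran from 0.06 to 0.28, and 203 to 914 genes had an unadjusted p under 0.05, the highest without Bexarotene 3. The cause of these shifts was not tested. With the replicate block, 0 genes and 0 members passed, and 424 genes had an unadjusted p under 0.05. The deviations of same-numbered libraries had r of −0.0765, −0.0899, −0.0729 and 0.0015. Such an r does not show how the mice were kept or handled, so it cannot decide whether the numbers pair them. Depth limits the shallow libraries most, where *Slc2a1* had 13 counts and *Pfkl* 29 in Bexarotene 2.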
